A study of Mus musculus with 38 samples.

Results

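The DNA replication machinery was followed here as 41 mouse genes that license replication origins, form and switch on the replicative helicase, prime, extend and join new DNA strands, and supply nucleotides. The genes were listed by name, with no expression value in the rule, and each symbol matched 1 Ensembl identifier among the 55487 genes of the 3 deposited count tables. All 41 passed the filter on low counts in every fit. RNA was sequenced from 38 libraries in 18 groups of 3 kinds of mouse cell. BV2 is an immortalised microglial line. GL261 is a glioma line, which in all of its groups stably carried the reporter plasmid pEGFP-N1. BMDM are primary bone marrow-derived macrophages labelled WT, whose strain, age and number of donors the labels do not give. Cells were kept for 16 h at 21% O2 (normoxia) or below 0.1% O2 (hypoxia), either alone (monoculture) or in co-culture, with 1 part of BV2 to 2 of GL261 or 1 part of BMDM to 1 of GL261. BV2 were grown in medium with 2% serum and BMDM in medium with 10% serum, and GL261 were seeded with 10% serum and then moved to the medium of the myeloid cell. A separate experiment held BV2 and BMDM monocultures that received DMSO in normoxia, DMSO in hypoxia, or 10 nM panobinostat, a histone deacetylase inhibitor, in hypoxia, with no panobinostat group in normoxia. Groups held 2 libraries, except the normoxic and the hypoxic BMDM co-cultures, which held 3. How the cell types of a co-culture were parted before RNA isolation is not given in the labels.

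As background, replication origins are licensed when the origin recognition complex (here Orc1 and Orc6), Cdc6 and Cdt1 load the MCM helicase ring onto DNA, and geminin (Gmnn) holds Cdt1 in check so that origins fire once per cycle. The kinase Cdc7 and the factor Mcm10 then help Cdc45 and the GINS complex to turn the ring into an active helicase. DNA polymerase alpha with primase starts each strand, the RFC clamp loader places the sliding clamp PCNA, and polymerases delta and epsilon extend the strand while RPA coats the unwound template. Fen1 and Lig1 trim and seal the lagging strand, and ribonucleotide reductase (Rrm1, Rrm2), Tk1, Tyms and Dut keep up the pools of DNA building blocks. Many of these genes are transcribed as cells pass from G1 into S phase, under factors of the E2F family, so that in a culture their RNA is known to follow the share of proliferating cells.

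To show promoter letters of genes that moved together and of genes that did not, the 160 bases before the RefSeq start of 5 members are printed, 5′ to 3′ on the gene's strand, from the RefSeq promoter table of build GRCm38.p6. Capitals mark the E2F-type words TTTCCCGC and TTTGGCGC on either strand. The coordinates are chr11:98907991-98908150 (plus strand) for Cdc6, chrX:93632156-93632315 (minus) for Pola1, chr1:128359706-128359865 (minus) for Mcm6, chr6:88898781-88898940 (minus) for Mcm2 and chr12:24708094-24708253 (plus) for Rrm2. Cdc6 and Pola1 are shown because hypoxia moved them in opposite directions in BV2 and GL261, Mcm6 as the member that also passed the test between co-cultured and lone hypoxic BMDM, and Mcm2 and Rrm2 for the size of their falls.
Cdc6: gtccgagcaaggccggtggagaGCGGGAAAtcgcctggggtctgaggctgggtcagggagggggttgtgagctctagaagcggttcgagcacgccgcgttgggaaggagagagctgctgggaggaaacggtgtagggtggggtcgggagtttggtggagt
Pola1: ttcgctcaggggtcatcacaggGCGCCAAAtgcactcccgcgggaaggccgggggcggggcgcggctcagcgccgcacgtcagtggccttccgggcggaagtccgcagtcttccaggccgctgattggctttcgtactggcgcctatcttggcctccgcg
Mcm6: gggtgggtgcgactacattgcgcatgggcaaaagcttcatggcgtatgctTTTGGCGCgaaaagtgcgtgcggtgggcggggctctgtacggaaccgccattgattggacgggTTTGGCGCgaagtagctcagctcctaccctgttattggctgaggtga
Mcm2: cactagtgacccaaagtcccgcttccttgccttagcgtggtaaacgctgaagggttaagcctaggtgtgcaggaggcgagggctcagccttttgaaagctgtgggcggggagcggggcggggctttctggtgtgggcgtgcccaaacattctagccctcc
Rrm2: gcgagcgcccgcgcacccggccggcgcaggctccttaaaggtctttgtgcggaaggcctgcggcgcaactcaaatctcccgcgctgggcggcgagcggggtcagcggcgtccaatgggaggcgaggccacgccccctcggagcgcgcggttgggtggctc
The Cdc6 word began 138 bases before the RefSeq start, as did the Pola1 word, and Mcm6 held 2 words, 110 and 47 bases before it. In the annotation used here for exon lengths Cdc6 starts at chr11:98907801, so its printed stretch lies inside that gene. The last bases of the Rrm2 stretch also do, as Rrm2 starts there at chr12:24708241. Windows of 300 bases, 250 before to 50 after a start, were in the table for 33 of the 41 members, as 39 windows. Either E2F-type word stood in 11 of these windows (28.2%), against 1.56% of all 32851 windows. The 11 members with a word were Cdc6, Cdt1, Gins3, Mcm3, Mcm5, Mcm6, Mcm7, Pola1, Pold1, Pole2 and Rfc3. CCAAT was in 53.9% of member windows and 37.4% of all windows, and ACGTG, the core of the hypoxia response element, in 28.2% and 19.6%. TTTGAA was in 17.9% and 17.9%. Both strands were searched and these shares are a description of letters, not of bound factors.

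Libraries held between 9634700 and 27238900 counts, to 6 significant digits, so that 3 counts, the floor used for a gene not detected, corresponded to 0.110 to 0.311 CPM. CPM are counts scaled to a common library total, with TMM factors except for marker sums. The floor takes in counting error alone. All libraries held different values, and the 22 pairs of replicates differed by 6.70 to 156 times the chi-square that sampling noise gives. The labels call the BV2 and GL261 co-culture libraries biological replicates and say nothing of the kind for the others, so p-values measure the spread between libraries, which may be technical. The low-oxygen labels could be checked on 12 response genes such as Vegfa and Slc2a1: in monocultures 10 of 11 tested rose in BV2, 11 of 12 in GL261 and 11 of 12 in BMDM, and 0 fell. In the panobinostat experiment 10 of 10 rose in BV2 with DMSO, but only Ndrg1 of 12 passed in BMDM with DMSO (11 at an unadjusted p under 0.05, all higher). There the response genes summed to 3654 and 1699.8 CPM in normoxic and 11445 and 9937 in hypoxic libraries, so normoxic replicate 1 was high but below both hypoxic ones. All 10 myeloid markers were detected in every BV2 and BMDM library, and all 8 glial and neural progenitor markers in every GL261 library. The GL261 monocultures also held 3 to 5 of the myeloid markers above the floor, at summed levels of 4.73 to 12.8 CPM. In the co-culture experiment lone BMDM held 2 to 4 of the glial and neural markers, at 148 to 282 CPM. Lone BV2 there held 1 to 5 of them, at 1.20 to 2.53 CPM.

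Compared per exon length, as RPKM, Pcna was the most abundant member in normoxic monocultures of all 3 cell types, at 173 ± 13.4 in BV2, 97.2 ± 4.15 in GL261 and 143 ± 1.62 in BMDM (mean ± SD, n = 2 each). Orc1, the origin-binding subunit, was near the bottom of the order, at 8.47 ± 0.476, 6.08 ± 0.137 and 2.56 ± 0.342 RPKM. Summed over the 41 genes, normoxic monocultures held 6522 ± 87.6 CPM in BV2, 3947 ± 149 in GL261 and 4040.1 ± 231 in BMDM (SD, n = 2). Hypoxic monocultures held 2666 ± 212, 3708 ± 416 and 1736 ± 154 CPM in the same order. The hypoxic libraries thus lay far below the normoxic ones in both myeloid cell types, while the GL261 libraries of the oxygen levels overlapped: 4052 and 3841 CPM in normoxia and 4002 and 3414 in hypoxia. In bulk RNA, fewer replicating cells and less of each transcript per cell cannot be told apart.

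**Figure D1:**
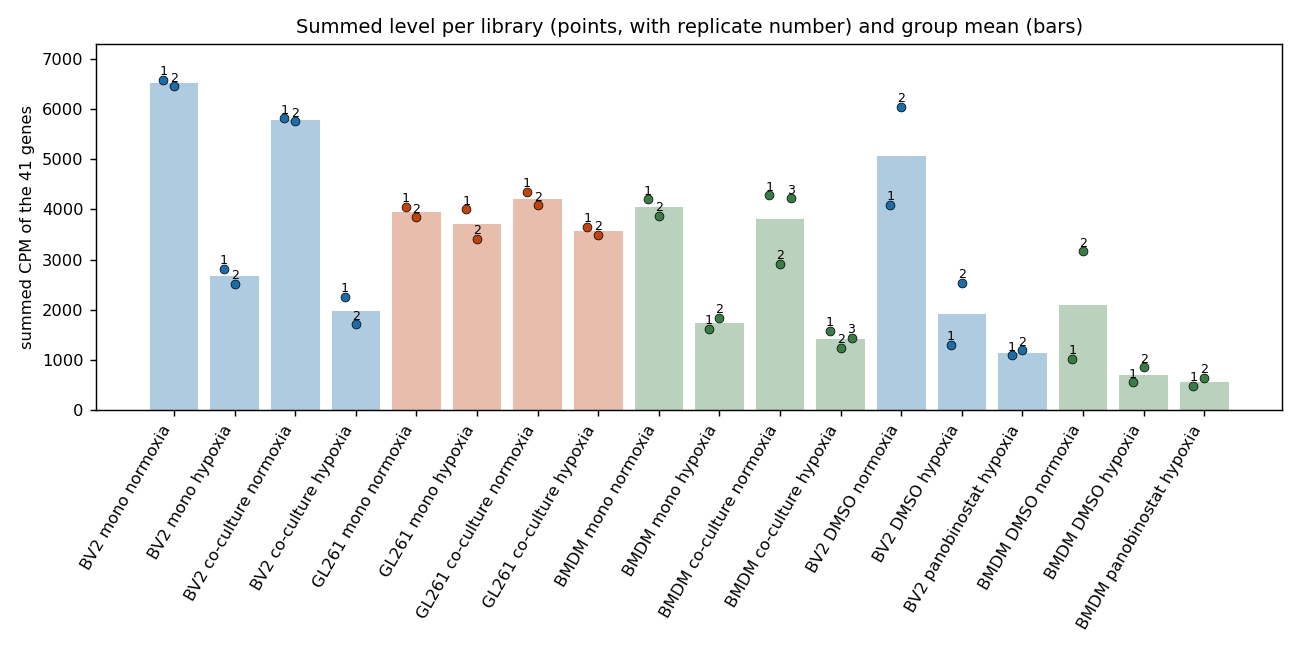
Summed CPM of the 41 replication genes (vertical axis) in each of the 38 libraries, by group. Points are libraries with their replicate number and bars are group means; hypoxic BV2 and BMDM groups stand below their normoxic groups, GL261 groups stand close together, and the replicate libraries of the DMSO groups lie far apart.

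In BV2 monocultures all 41 replication genes fell in hypoxia and 0 rose, by a median of -1.37 on the log2 scale (edgeR quasi-likelihood test, Benjamini-Hochberg threshold 0.05). Of all 14432 genes tested, 31.0% fell, 30.9% rose and the median change was 0.00. For each of the 41, both hypoxic libraries lay below both normoxic ones, a description with no matching share of all genes beside it. The falls ranged from 2.40 for Mcm2 to 0.32 for Cdc6 (log2 scale).

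The MCM genes encode the ring of the helicase. Mcm2 was at 328 and 327 CPM in the normoxic BV2 libraries and at 63.05 and 61.2 in the hypoxic ones. This was the largest fall of the list, 5.27-fold (log2 change -2.40, SE 0.14, edgeR adjusted p = 6.25e-10). The other MCM genes fell by 1.15 (Mcm7) to 1.73 (Mcm5). Mcm3, at 515 and 529.9 CPM in normoxia, was at 221 and 183 in hypoxia, and Mcm6 went from 632 and 645 to 254 and 236. Among the activators, Gins1 fell from 72.3 and 69.95 to 21.7 and 17.8 CPM (log2 change -1.85, SE 0.14, edgeR adjusted p = 1.09e-08), Gins2 from 64.5 and 56.3 to 19.8 and 15.8 and Mcm10 from 76.1 and 72.5 to 30.8 and 27.6. Cdc45, which joins GINS on the ring, changed less (-0.53, edgeR adjusted p = 0.00555). Of the exon bases of Gins2, 67.3% lie opposite Gse1 exons, and whether the counting used strand is not given in the sources used here, so its values are uncertain; the same holds for Fen1, with 84.2% opposite Gm10143 and Tmem258.

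Licensing factors were split in BV2. Cdt1 went from 238 and 237 to 171 and 152 CPM and Cdc6 from 70.3 and 74.5 to 55.9 and 60.3. These log2 changes, -0.56 and -0.32 (edgeR adjusted p = 0.00147 and 0.031), were among the 4 smallest, together with those of Prim2 (-0.33) and Cdc45. Orc1, in contrast, fell from 28.3 and 30.7 to 9.38 and 10.05 CPM (log2 change -1.60, SE 0.18). Orc6 and geminin fell by 1.37 and 1.26.

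Pcna, the clamp, fell from 438 and 393 to 268 and 216 CPM (-0.78, SE 0.13). This was less than for the loader subunits Rfc2 to Rfc5, which fell by 1.08 to 1.47. The loader subunit Rfc1 also fell less than these, from 212 and 218 to 134 and 127 CPM. No test between genes was made. Of the 75-base words in Pcna transcripts 13.8% recur in other genes, foremost the copy Pcna-ps2. For Mcm7 this share is 13.2%, foremost in Gm5487, so reads there could be split. Of the polymerases, the catalytic subunit Pola1 fell from 106 and 121 to 38.04 and 36.7 CPM and Pold1 from 101 and 97.3 to 40.7 and 34.8. Pole2, a subunit of polymerase epsilon, showed the largest fall of its role group (-1.62, SE 0.15). Lig1 went from 138 and 134 to 61.99 and 46.2 CPM and Rpa1 from 215 and 231 to 75.8 and 77.1, log2 changes of -1.33 and -1.54. The 5 genes of nucleotide supply had the lowest median of the 8 role groups, -1.68. Within it Rrm1, the large subunit of ribonucleotide reductase, fell from 387 and 406 to 147 and 132 CPM and Rrm2, the small subunit, by 1.76. Thymidine kinase, Tk1, fell by 1.12.

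In BMDM monocultures 39 of the 41 genes fell in hypoxia and 0 rose, by a median of -1.29. Of all genes tested 23.9% passed: 10.6% fell and 13.3% rose around a median of 0.03. Gins4 (-0.31, edgeR adjusted p = 0.258) and Rfc1 (-0.41, 0.122) did not pass. For all 41 genes both hypoxic libraries lay below both normoxic ones, again with no matching share of all genes beside it. Tyms, thymidylate synthase, fell from 59.7 and 53.8 to 13.5 and 17.4 CPM, the largest change here (log2 -1.88, SE 0.26, edgeR adjusted p = 8.42e-04). Pole2 fell from 9.96 and 9.57 to 2.25 and 3.32 CPM (-1.80, SE 0.30) and Gins1 from 19.05 and 23.2 to 5.89 and 6.22 (-1.80, SE 0.28).

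The ring genes of BMDM fell within a narrow range, 1.28 to 1.66, with Mcm3 at 240.2 and 214 CPM in normoxia and 82.6 and 104 in hypoxia. Mcm10 went from 80.8 and 74.8 to 25.1 and 36.5 CPM. Cdc6, the member that fell least in BV2, fell in BMDM from 28.03 and 26.3 to 8.80 and 10.02 CPM (log2 change -1.53, SE 0.27); the cell types lie in separate tables and this difference was not tested. Cdt1 went from 154 and 168 to 80.4 and 116 CPM (-0.71) and Pcna from 347 and 342 to 232 and 229 (-0.58, edgeR adjusted p = 0.0498, just inside the threshold). Pold1 fell from 145 and 141 to 64.3 and 70.6 CPM. Lig1 fell from 242 and 227 to 88.7 and 105. Rpa1 fell from 133 and 119 to 55.9 and 59.6. Rrm1 fell from 241 and 219 to 76.96 and 86.2. In each of these 4 genes the fall was larger than the spread between replicate libraries. Across the 41 genes the changes in BV2 and BMDM monocultures had a Pearson correlation of 0.57 (n = 41 genes, which are not independent replicates).

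In GL261 monocultures hypoxia left the summed level nearly where it was but shifted single genes both ways: 6 members rose, 15 fell and 20 did not pass. Among all genes tested 44.6% passed, as 23.2% rose and 21.4% fell. The share of members that rose was thus below the background and the share that fell was above it. The members' median change was -0.12, beside -0.03 over all genes. Leaving out single GL261 libraries gave 4 to 9 rises and 11 to 16 falls.

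The rises lay in licensing, the ring, the clamp loader and polymerase alpha. Rfc4, a subunit of the clamp loader, rose from 33.9 and 30.5 to 52.1 and 50 CPM (log2 change 0.67, SE 0.13, edgeR adjusted p = 0.00163). Mcm3 rose from 215 and 191 to 348 and 266 CPM (0.60, SE 0.15), and the other 5 ring genes did not pass, with changes between -0.21 (Mcm6) and 0.19 (Mcm5). Cdt1 rose from 96.02 and 90.8 to 153 and 129 CPM (0.59) and Cdc6 from 63.03 and 61.5 to 93.2 and 83.5 (0.50). Orc6, at 87.99 and 68.99 and then 115 and 98.3 CPM, rose by 0.44 (edgeR adjusted p = 0.0259), and Pola1, at 69.8 and 90.1 and then 132 and 96.8, by 0.52 (edgeR adjusted p = 0.0251). Of the 75-base words in Rfc4 transcripts 7.45% also occur in other genes on either strand, foremost Eif4a2. Of its exon bases 12.65% lie opposite Eif4a2 exons, so a part of its reads could be shared.

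The 3 largest falls in GL261 were those of Tk1, Pold2 and Gins1. Tk1 fell from 136 and 113 to 48.2 and 46.4 CPM (log2 change -1.40, SE 0.14, edgeR adjusted p = 3.02e-05). Pold2, a small subunit of polymerase delta, fell from 71.9 and 70.9 to 28.6 and 34.8 (-1.17, SE 0.15). Gins1 fell from 19.3 and 17.5 to 8.85 and 10.1 CPM (-0.96, SE 0.16). Rrm2 (-0.95), Dut (-0.94), Gins2 (-0.88), geminin (-0.80), Cdc7 (-0.64), Orc1 (-0.48), Fen1 (-0.39) and Rfc5 (-0.38) also fell. So did Pcna, from 240.3 and 226 to 146 and 153 CPM (-0.64), Pold1, from 133 and 144 to 88.5 and 96.1 (-0.59), and Lig1, from 116 and 114 to 84.9 and 71.7 (-0.55). Rpa1 fell from 148 and 123 to 110.4 and 86.5 CPM (-0.46, edgeR adjusted p = 0.0274; 0.0538 in a fit of only the groups compared). Rrm1, at 264 and 268 and then 258 and 181 CPM, and Mcm10, at 74.5 and 78.6 and then 103 and 83.3, did not pass. Nor did Tyms (0.22), so within nucleotide supply 3 of 5 genes fell.

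**Figure D2:**
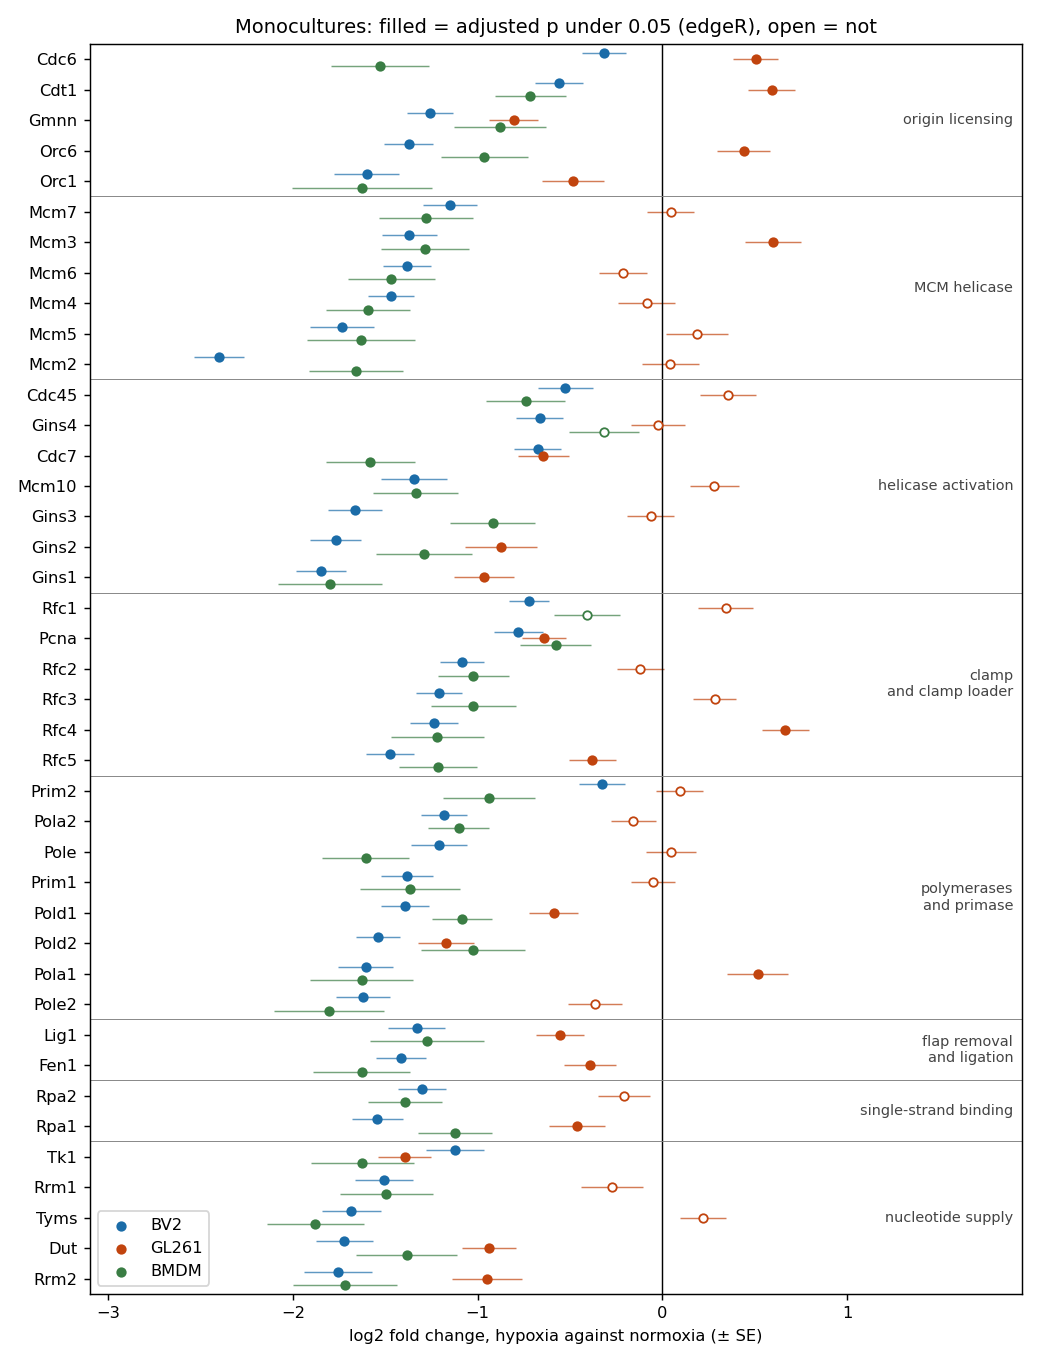
Log2 fold change in hypoxia against normoxia (horizontal axis, ± SE) of each of the 41 genes in BV2, GL261 and BMDM monocultures, grouped by role. Filled points passed the adjusted threshold; all BV2 points and 39 of 41 BMDM points are filled and lie left of 0, while GL261 points lie on both sides.

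The difference between the lines was itself tested in the fit of all BV2 and GL261 libraries. The hypoxia change of 34 of the 41 genes was lower in BV2 than in GL261 and that of 0 was higher; 18.7% of all genes tested were called lower and 18.7% higher. The members' median difference was -0.99, against an all-gene median of 0.15. The largest difference was that of Mcm2 (-2.34, SE 0.22, edgeR adjusted p = 2.47e-07), at 152 and 132 CPM in normoxic and 165 and 127 in hypoxic GL261. Pola1 (-2.02), Mcm3 (-1.87), Mcm5 (-1.82), Tyms (-1.80), Rfc4 (-1.80) and Orc6 (-1.71) followed. Tk1 (0.37, SE 0.22), Pcna (-0.04, SE 0.18), Cdc7 (0.07, SE 0.19), Pold2 (-0.27, SE 0.19), Prim2 (-0.32), geminin (-0.35) and Rrm2 (-0.71) did not pass, so no difference between the lines was detected for them. The 6 genes that rose in GL261 fell in BV2, and for all 6 the difference passed. Over the 41 genes the changes of the lines had a Pearson correlation of 0.30 (n = 41 genes, which are not independent replicates).

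**Figure D3:**
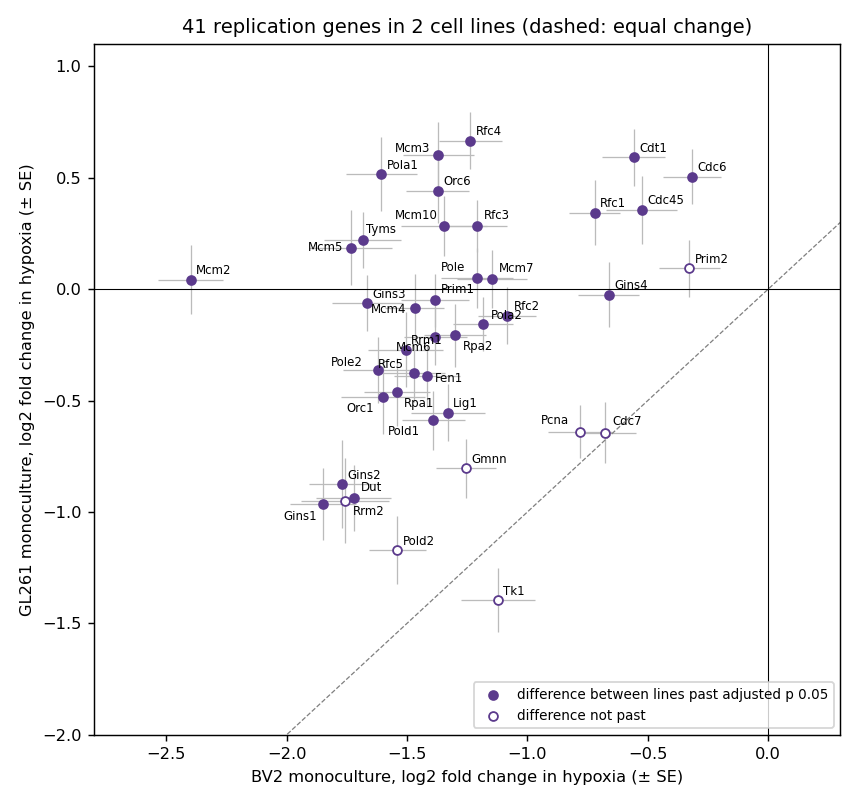
Log2 fold change in hypoxia of the 41 genes in GL261 (vertical axis) against BV2 (horizontal axis) monocultures, both ± SE. The dashed line marks equal change; 34 filled points are genes whose change differed between the lines, and Tk1 lies below the line.

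**Figure D4:**
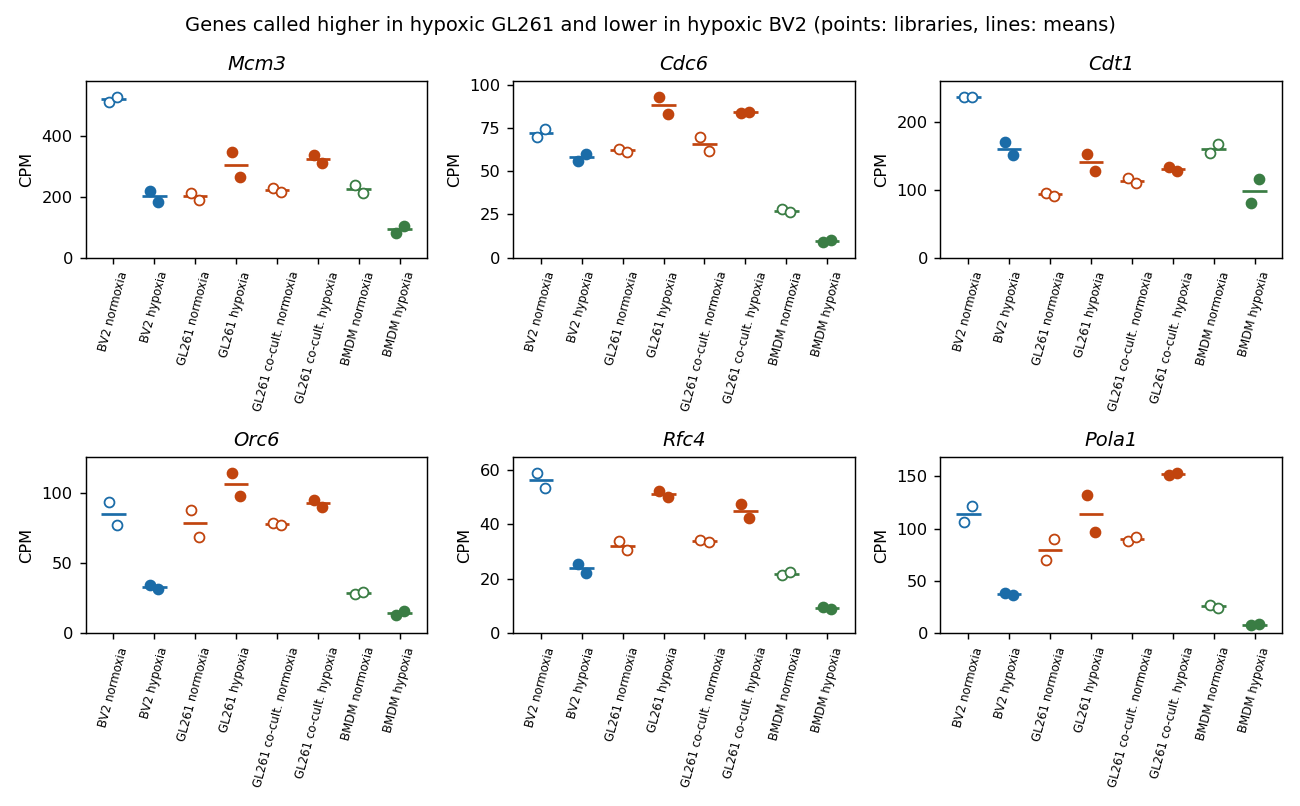
CPM (vertical axis, from 0) of the 6 genes called higher in hypoxic GL261 and lower in hypoxic BV2 monocultures, 1 point per library with group means as lines. Open points are normoxic and filled points hypoxic libraries; in GL261 monocultures the filled points lie above the open ones for each gene, in BV2 and BMDM below.

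Other genes around replication, listed by function, were counted for comparison. Of 39 further replication genes, 36 fell and 1 rose in hypoxic BV2 monocultures, 14 fell and 13 rose in GL261, and 25 fell and 0 rose in BMDM. Dna2, a nuclease-helicase of the lagging strand, fell in all 3 (-2.12, -1.96 and -2.22), as did Dctpp1, which degrades modified nucleotides (-1.90, -1.97 and -1.63). Orc2, an origin-binding subunit, fell by 2.62 in BV2. In GL261 Rnaseh2c, a subunit of an enzyme that removes ribonucleotides from DNA, fell by 2.17 and Atad5, which unloads the clamp, rose by 1.29.

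Of 25 regulators of the G1/S step, 6 rose and 16 fell in BV2, 8 rose and 5 fell in GL261, and 2 rose and 12 fell in BMDM monocultures. Cdkn1a, an inhibitor of cyclin-dependent kinases, rose by 3.68 in BV2 and 1.76 in GL261 (log2 scale). Its relative Cdkn1b rose by 2.22 and 1.05. Cyclin E, Ccne1, which with Cdk2 drives entry into S phase, fell by 2.06 in BV2 and 1.97 in BMDM. The repressor E2f8 fell by 1.39 in BMDM, and the activator E2f2 rose by 1.03 in GL261. Of 15 genes of G2 and mitosis, such as Mki67 and Top2a, 14 fell and 0 rose in BV2, 14 fell and 0 rose in BMDM, and 3 fell and 4 rose in GL261, with medians of -1.63, -1.16 and 0.14. These genes of dividing cells thus mostly fell beside the replication genes in BV2 and BMDM, and moved both ways in GL261. Their part in the result was not tested.

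Co-culture with the partner cell was asked in 2 ways: whether hypoxia acted on the members in co-cultured cells, and whether co-culture itself moved them. Hypoxia again lowered all 41 members in co-cultured BV2 (median -1.64; 32.1% of all genes fell and 35.2% rose) and all 41 in co-cultured BMDM (median -1.35; 17.3% fell and 17.5% rose), with 0 rises in either. In co-cultured GL261 5 members rose and 19 fell (median -0.25; 52.4% of all genes passed, as 26.8% of all genes rose and 25.6% fell). Mono- and co-cultures are separate libraries, and across the 41 genes their changes had Pearson correlations of 0.82 (BV2), 0.94 (GL261) and 0.85 (BMDM; n = 41 genes each, not independent replicates).

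The largest falls in co-culture were those of Gins1 in BV2, from 80.7 and 77.7 to 15.1 and 11.8 CPM (log2 change -2.56, SE 0.14, edgeR adjusted p = 5.30e-10), and Rrm2 in BMDM. Rrm2 was at 169.5, 90.8 and 165 CPM in the normoxic and 36.9, 24.9 and 30.1 in the hypoxic BMDM co-cultures (-2.21, SE 0.24, edgeR adjusted p = 8.64e-05). In GL261 co-culture Tk1 fell from 143 and 126 to 28.3 and 33.8 CPM (-2.12, SE 0.15). The 5 rises there were Pola1, from 87.7 and 92.2 to 152 and 153 CPM (0.76, SE 0.17), Mcm3, from 229 and 218 to 339 and 311 (0.54), and 3 smaller ones. Of these, Rfc1, the large loader subunit, rose from 179 and 175 to 247 and 227 (0.42, edgeR adjusted p = 0.0306). Rfc4 rose from 34.4 and 33.7 to 47.6 and 42.4 (0.40, 0.0215) and Cdc6 from 70.3 and 61.9 to 84.04 and 84.5 (0.35, 0.0325). The count rested on single libraries: without hypoxic replicate 1 it was 1 rise and 14 falls, and without normoxic replicate 1 it was 1 rise and 13 falls.

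RNA of the partner cell was estimated from genes whose level in the partner was 100-fold or more above that in the cell itself. It made up 0.568% to 0.951% of normoxic and 2.07% to 2.36% of hypoxic BV2 co-culture libraries, 0.630% to 0.915% and 0.218% to 0.256% of the GL261 ones, and 1.29% to 3.70% and 1.72% to 6.28% of the BMDM ones, the last set across tables that were normalized separately. The median share of a member's counts that such carry-over would give was 3.64% and 5.86% in the hypoxic BV2 co-cultures and 5.01% to 16.7% in the hypoxic BMDM ones. It reached 69.6% for Pola1 in hypoxic BMDM replicate 2. The fall of Pola1 in co-cultured BMDM was 1.33, against 1.63 in monoculture. The part of carry-over in these values was not tested.

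Co-cultured and lone cells were compared at the same oxygen level within each cell type; differences in this effect between cell types were not tested. In hypoxic BV2, 22 of 41 were lower in co-culture and 0 higher (median -0.40), where 7.57% of all genes were lower and 8.13% higher. Tk1 was at 54.9 and 39.8 CPM in lone and 29.01 and 21.3 in co-cultured hypoxic BV2 (log2 difference -0.91, SE 0.16, edgeR adjusted p = 0.00104), and the groups did not overlap. The 22 became 10 without hypoxic co-culture replicate 2, whose summed member level was the lowest of the 8 BV2 libraries of this experiment, and also 10 without hypoxic monoculture replicate 1.

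In normoxic BV2, 3 members were lower in co-culture (Pola1, Rfc1 and Pole) and 0 higher; 9.14% of all genes were lower, so the members' share was no higher than the background. Pola1 was at 106 and 121 CPM alone and 81.3 and 72.2 in co-culture (-0.57, SE 0.14, edgeR adjusted p = 0.0143). The 3 became 1 without normoxic co-culture replicate 1 and 0 without its replicate 2 or without monoculture replicate 2. In hypoxic BMDM only Mcm6 passed, at 94.3 and 109 CPM alone and 61.9, 43.3 and 62.4 in co-culture (-0.87, SE 0.21, edgeR adjusted p = 0.0351; 7.11% of all genes passed, 3.05% lower and 4.06% higher). This call was lost in a fit of only the groups compared (0.0753) and on leaving out hypoxic co-culture replicate 2 or 3 or either hypoxic monoculture, with 2 members called without co-culture replicate 1. In normoxic BMDM 0 members passed, with 0 at an unadjusted p under 0.05 and 0 by DESeq2 (1.64% of all genes passed, as 1.57% were higher and 0.0675% lower). In GL261 0 passed in normoxia, with 3 at an unadjusted p under 0.05 and 0 by DESeq2 (0.514% of all genes passed, as 0.323% were higher and 0.191% lower). In hypoxic GL261 0 passed, with 7 at an unadjusted p under 0.05 and 1 by DESeq2 (1.39% of all genes passed, and 0.889% were higher).

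Whether co-culture altered the hypoxia change was tested as an interaction. None of the 41 passed in BV2 (16 at an unadjusted p under 0.05, 5 by DESeq2; 2.19% of all genes passed, as 1.16% were higher and 1.03% lower), GL261 (6 and 0; 0%) or BMDM (1 and 0; 0%). In BV2 this count rested on single libraries: 10 members passed without hypoxic co-culture replicate 1, 6 without hypoxic monoculture replicate 2 and 1 without hypoxic co-culture replicate 2, all toward a larger fall in co-culture. The BV2 median interaction was -0.32 and that of GL261 -0.20.

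The panobinostat experiment held a second set of hypoxia libraries, with DMSO. In BV2, 36 of 41 members fell and 0 rose (median -1.45; 20.2% of all genes fell and 17.2% rose), and Mcm7, Cdc45, Cdc6, Pcna and Prim2 did not pass. Orc1 fell most, from 14.7 and 25.8 to 1.97 and 5.68 CPM (log2 change -2.40, SE 0.56, edgeR adjusted p = 0.00826). Across the 41 genes the changes had a Pearson correlation of 0.86 with those of the BV2 monocultures of the co-culture experiment, which share no library with these (n = 41 genes, not independent replicates). The spread between replicates was wide: the members summed to 4094 and 6048 CPM in normoxic and 1300.5 and 2535 in hypoxic libraries, and 40 and 40 of 41 genes were higher in replicate 2. Without normoxic replicate 2, 15 genes fell, and with a block for replicate number 40 did.

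Most named members showed this pattern of a clear fall with distant replicates. Mcm3 went from 289.6 and 485 CPM in normoxic to 78.8 and 192 in hypoxic BV2 with DMSO, Rrm1 from 173 and 253 to 45.7 and 93.1 and Mcm10 from 45.8 and 66.3 to 7.94 and 21.5. Cdt1 went from 228 and 317 to 129 and 174 CPM (edgeR adjusted p = 0.0188; 0.0546 in a fit of only the groups compared), Pold1 from 102 and 121 to 29.2 and 55.6 and Lig1 from 91.9 and 159 to 27.98 and 70.8. Rpa1 went from 137 and 195 to 49.4 and 82.04. Pcna is the exception among them: its libraries overlapped, at 196 and 273 CPM in normoxia and 147 and 198 in hypoxia (-0.44, SE 0.24, edgeR adjusted p = 0.171).

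In BMDM with DMSO 0 of 41 members passed in hypoxia. Their median change was -1.75, and both hypoxic libraries lay below both normoxic ones for 33 genes. The matching median and share over all genes are not given here. There were 23 at an unadjusted p under 0.05, all lower, and 15 by DESeq2. By the adjusted edgeR test 0.483% of all genes passed, as 0.469% rose and 0.0134% fell. With a block for replicate number 20 fell, and 2 libraries a group do not settle whether the numbers pair them. Shares of all genes under the unadjusted, DESeq2 and block settings are not given here, so these member counts have no background beside them. The replicate spread of this fit was the widest of the 5 within a cell type (biological coefficient of variation 0.381, against 0.205 in BV2 of the same experiment), so the 0 does not show that the members were unchanged. The members summed to 1025 and 3163 CPM in normoxic and 559 and 853 in hypoxic libraries, so the normoxic pair differed about as much as the oxygen levels did. Mcm3 was at 47.2 and 150.4 CPM in normoxia against 11.6 and 28.5 in hypoxia, and, in the same order, Rrm1 at 76.7 and 223 against 19.6 and 47.9. Mcm10 was at 8.48 and 56.5 against 0.357 and 6.09, Cdt1, whose groups overlapped, at 31.3 and 104 against 23.6 and 33.1, and Pold1 at 39.5 and 105 against 24.99 and 28.7. Lig1 was at 45.8 and 180 against 10.1 and 35.6 CPM, Rpa1 at 51.2 and 129 against 28.1 and 40.99, and Pcna, also with overlap, at 80.3 and 212 against 132 and 107. Markers of other cells moved in these BMDM libraries. The 10 myeloid markers, all detected in each, summed to 27896 and 18607 CPM in normoxia, 3578 and 10872 in hypoxia and 1182 and 5231 with panobinostat (replicates 1 and 2). The 4 fibroblast markers (Col1a1, Col1a2, Dcn and Pdgfrb) summed to 19747 and 19357, 2577 and 13317 and 8594 and 14052 CPM, against 60.6 to 546 CPM in the BMDM libraries of the co-culture experiment, a table normalized separately. These libraries thus held abundant RNA of fibroblast markers beside that of myeloid ones, and its part in the BMDM results of this experiment was not tested. The hypoxia change of 0 members differed between BV2 and BMDM with DMSO (1 at an unadjusted p under 0.05, 0 by DESeq2; 0.664% of all genes passed).

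Part of the members were lower with panobinostat in hypoxic BV2, in calls that rested on single libraries, as given below. Against DMSO in hypoxia, 14 of 41 fell and 0 rose (median -0.89), where 7.39% of all genes fell, 7.21% rose and the all-gene median was -0.01. The 14 came from 7 of the 8 role groups, origin licensing being the one without a call. Rrm2 fell from 15.5 and 44.98 to 5.31 and 10.9 CPM, the largest change (log2 -1.89, SE 0.47, edgeR adjusted p = 0.027). Mcm10 fell from 7.94 and 21.5 to 3.30 and 5.77 CPM (-1.69, SE 0.46, 0.0361; 0.0530 in a fit of only the groups compared) and Mcm3 from 78.8 and 192 to 34.8 and 51.4 (-1.65, SE 0.41, 0.0273). The groups did not overlap for any of these 3 genes.

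Further falls with panobinostat were those of Cdc45 (-1.65), Lig1 (-1.60; 27.98 and 70.8 to 14.1 and 18.5 CPM), Rfc3 (-1.54), Mcm7 (-1.42), Rfc5 (-1.41), Pold1 (-1.38; 29.2 and 55.6 to 14.8 and 17.7 CPM), Tk1 (-1.32), Pole (-1.28), Rrm1 (-1.17; 45.7 and 93.1 to 28.99 and 32.7 CPM), Rpa2 (-1.13) and Pola2 (-0.997). Pcna, at 147 and 198 CPM with DMSO and 174 and 153 with panobinostat, overlapped between groups (-0.08, SE 0.24). Rpa1 overlapped too (49.4 and 82.04 against 66.4 and 55.6 CPM). Cdt1, at 129 and 174 CPM with DMSO against 95.3 and 92.5 with panobinostat, did not overlap and did not pass (edgeR adjusted p = 0.0788), passing by DESeq2 (0.0444) and in a fit of only the groups compared (0.0377).

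The 14 calls rested on single libraries. They became 27 without hypoxic DMSO replicate 1, 0 without its replicate 2, 0 without panobinostat replicate 1 and 3 without panobinostat replicate 2, and 26 with a block for replicate number. The members summed to 1300.5 and 2535 CPM in the hypoxic DMSO libraries and 1092 and 1192 in the panobinostat ones, so DMSO replicate 1 lay near the treated libraries. Of the other lists, 12 of 39 further replication genes fell and 0 rose, led by Recql4 (-1.93), a helicase, and Clspn (-1.88), a fork checkpoint protein. Of the 15 genes of G2 and mitosis 8 fell and 0 rose (median -1.55), and 0 of 10 low-oxygen genes passed (1 at an unadjusted p under 0.05).

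In hypoxic BMDM 0 of 41 members passed with panobinostat, with 3 at an unadjusted p under 0.05, 2 of them higher, and 1 by DESeq2; 0% of all genes passed. The members' median change was -0.38. Mcm3 was at 11.6 and 28.5 CPM with DMSO against 7.25 and 14.97 with panobinostat, and, in the same order, Mcm10 at 0.357 and 6.09 against 0.857 and 2.40. Rrm1 was at 19.6 and 47.9 against 21.96 and 29.9 CPM, Lig1 at 10.1 and 35.6 against 10.4 and 16.6, and Pold1 at 24.99 and 28.7 against 17.1 and 22.2. Cdt1 was at 23.6 and 33.1 against 17.6 and 15.8, Rpa1 at 28.1 and 40.99 against 34.2 and 53.9, and Pcna at 132 and 107 against 52.9 and 77.96. Of the genes given here the groups overlapped for Mcm3, Mcm10, Rrm1, Lig1 and Rpa1. The replicate spread of this fit was wide (biological coefficient of variation 0.381), so the 0 does not show that the members were unchanged in BMDM. The panobinostat change differed between BV2 and BMDM for 0 members (2 at an unadjusted p under 0.05, 1 by DESeq2; 0.0251% of all genes passed).

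**Figure D5:**
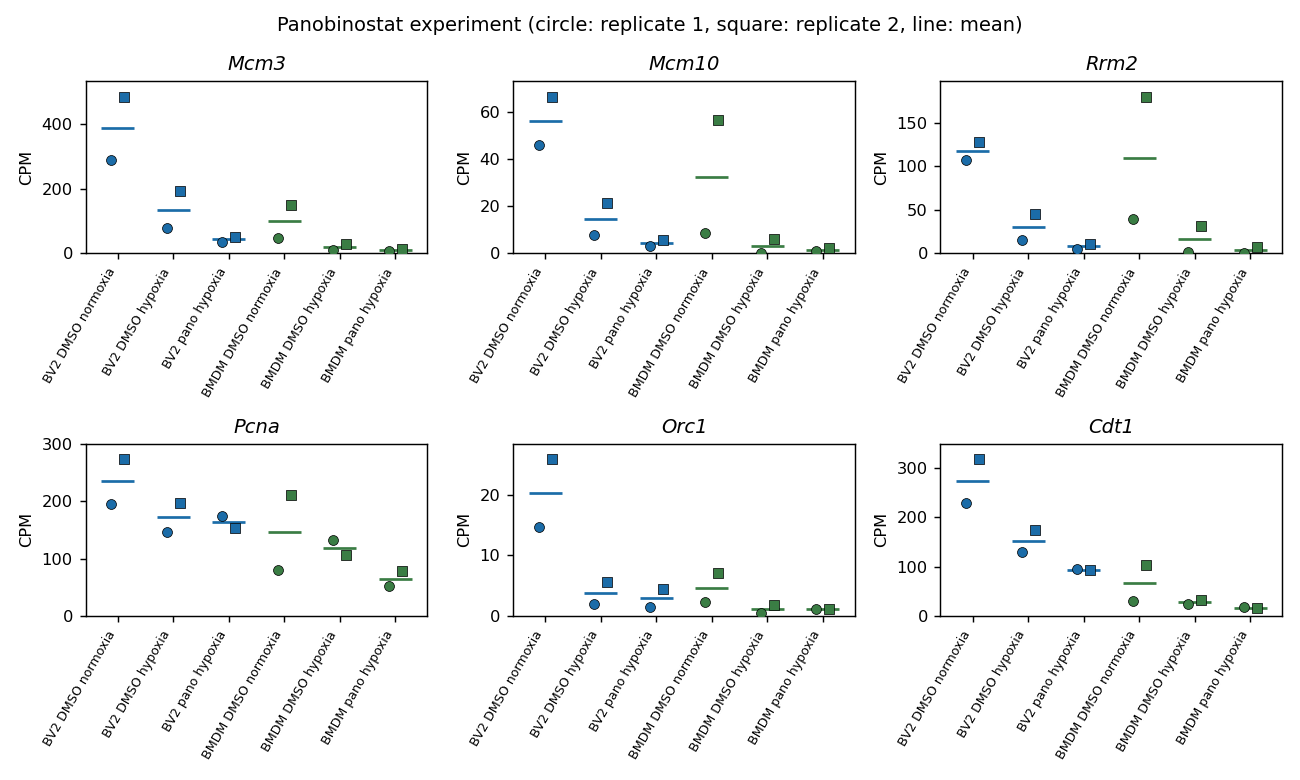
CPM (vertical axis, from 0) of 6 replication genes in the panobinostat experiment, circles for replicate 1 and squares for replicate 2, with lines at group means. The normoxic DMSO squares lie well above the circles, and in hypoxic BV2 the panobinostat libraries lie below both DMSO libraries for Mcm3, Mcm10, Rrm2 and Cdt1 but not for Pcna or Orc1.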

How the data were processed

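Raw read counts per gene were used as deposited by the authors, in 3 tables with Ensembl identifiers. Per the submitters' processing notes, reads were handled with Trimmomatic 0.36, STAR 2.6, SAMtools, HTSeq 0.9.1 and deepTools on build mm10, and Picard 2.17.1 is named for the BV2 and GL261 libraries of the co-culture experiment. Per the labels' protocols, poly(A) RNA of glyoxal-fixed cells was made into stranded libraries. The annotation release and the strand setting of the counting are not given in the sources used here. CPM with TMM factors and RPKM were computed from the deposited counts for this report, and marker sums are plain CPM.

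Each cell type was fitted within its own table with edgeR 4.0.16 (R 4.3.3; filterByExpr with a minimum count of 10 and a total of 15, TMM, glmQLFit and glmQLFTest), 1 coefficient per group, with Benjamini-Hochberg adjustment over all genes tested and a threshold of 0.05. Differences between cell types were interaction terms in a fit of both. Shares of all genes that passed are from these adjusted edgeR tests, also where unadjusted, DESeq2 or replicate-block counts of members stand beside them. The members, gene lists and tests were chosen with earlier results of these data known. Values per library are given for the 3 members with the largest fall and the 2 with the largest rise among those past the threshold in each monoculture hypoxia and panobinostat comparison, and for the single largest of each direction elsewhere. They are also given for the most abundant member of each role, and for calls against the main direction where there were 5 or fewer. Genes named only with their change, and the promoters printed, were picked after their values were seen. Of 40 other replication genes Chtf8 matched 2 identifiers and was left out. RNA of the partner was estimated from genes at 20 CPM or more in the partner and 100-fold lower in the cell itself. The test was tried on simulated data. Alternatives were DESeq2 1.42.0 (size factors in edgeR, and its Wald test), a mean CPM of 5 or no filter on low counts, a fit of only the groups compared, a replicate block, leaving out each library, and leaving out genes 4-fold higher in the partner. In the BMDM co-culture comparison the 3 same-numbered pairs deviated together over all genes tested (correlations 0.455, 0.244 and 0.407), so the numbers were taken to pair those libraries. Over the 41 members alone the correlations were 0.259, -0.0417 and 0.225. The values printed for this comparison are from the fit without a block. With the block 41 members fell, as without it.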

Additional observations from a re-analysis of the deposited data

Results flagged for a closer look

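The hypoxia change differed between BV2 and GL261 monocultures for 34 members, tested as an interaction in edgeR across all genes, each with a lower change in BV2. Among the members given with values in every library, the differences in log2 change, BV2 minus GL261, were -2.34 for Mcm2, -2.02 for Pola1, -1.87 for Mcm3, -1.80 for Rfc4, -1.71 for Orc6, -1.53 for Mcm10 and -1.14 for Rrm1. They were -1.05 for Cdt1, -0.98 for Rpa1, -0.80 for Gins2, -0.78 for Gins1, -0.72 for Cdc6, -0.70 for Pold1 and -0.68 for Lig1.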

How the results depend on the processing

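Of 253 counts of called members under an alternative, 211 were within 1.5 times the count reported, 42 moved beyond that, and 0 held a called member of opposite sign. The DESeq2 Wald test called 2 members in hypoxic BMDM between co-culture and monoculture (1 in edgeR), 15 in BMDM with DMSO (0), 5 for the BV2 interaction of co-culture and hypoxia (0), and 1 each (0) for BMDM with panobinostat, the BV2 and BMDM difference with panobinostat, and hypoxic GL261 between culture types. A mean CPM of at least 5 gave 0 in hypoxic BMDM between culture types, 8 for BV2 with panobinostat, 1 in normoxic BV2 between culture types and 2 for the BV2 interaction. No filter on low counts gave 1 in BMDM with DMSO, 3 for the BV2 interaction and 1 in hypoxic GL261 between culture types. A fit of only the groups compared gave 0 in hypoxic BMDM and 5 in normoxic BV2 between culture types, and leaving out genes 4-fold higher in the partner gave 0 in hypoxic BMDM.

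With the replicate block the counts were 2 in hypoxic BMDM between culture types, 1 for BMDM with panobinostat, 20 in BMDM with DMSO, 26 for BV2 with panobinostat, 3 for the BV2 interaction and 1 in hypoxic GL261 between culture types; the cause was not tested. The block gave 41 in BV2 monoculture and co-culture, 25 in GL261 monoculture and co-culture, 39 in BMDM monoculture, 40 in BV2 with DMSO, 23 in hypoxic and 4 in normoxic BV2 between culture types, and 35 between BV2 and GL261. With 2 libraries a group the correlation for number 2 equals that for number 1 by construction, so outside the BMDM co-cultures the pairing could not be settled; same-numbered libraries had mean correlations of deviations of 0.0335 (BV2), 0.180 (GL261), 0.148 (BMDM), 0.302 (BV2 with DMSO or panobinostat) and 0.446 (BMDM likewise). In the panobinostat experiment these correlations were 0.154 to 0.389 in BV2 and 0.336 to 0.593 in BMDM, all positive, a hint of pairing from the data and not from the labels.

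Leaving out 1 library at a time gave 38 to 40 called members in BV2 monoculture, 41 in BV2 co-culture, 16 to 20 in GL261 monoculture, 14 to 18 in GL261 co-culture, 27 to 33 in BMDM monoculture and 39 to 41 in BMDM co-culture. It gave 15 to 40 in BV2 with DMSO, 0 to 27 for BV2 with panobinostat, 0 to 3 in normoxic and 10 to 31 in hypoxic BV2 between culture types, 0 to 2 in hypoxic BMDM between culture types, 29 to 35 between BV2 and GL261 and 0 to 10 for the BV2 interaction. The lone library of a group is then assumed to vary like the other groups. Of 810 alternative values of named members, 721 kept direction and side of the threshold, 65 lost the call, 15 gained it and 9 changed sign. For results that changed sign, leaving out single libraries gave ranges of -1.37 to 0.41 for Lig1, -1.88 to 2.15 for Mcm10, -0.86 to 0.40 for Rrm1 and -0.0088 to 0.65 for Rpa1 (BMDM, panobinostat), -0.88 to 0.57 for Pcna (BMDM with DMSO, hypoxia), and -0.28 to 0.14 for Pcna and -0.44 to 0.30 for Rpa1 (BV2, panobinostat). The sign changed without hypoxic BMDM DMSO replicate 2 (Lig1, Mcm10, Rrm1), BMDM panobinostat replicate 2 (Rpa1), normoxic BMDM DMSO replicate 2 (Pcna), and hypoxic DMSO replicate 2 or panobinostat replicate 2 of BV2 (Pcna, Rpa1). None of these 9 passed the test in the fit reported. Mcm10, at 0.357 CPM in 1 hypoxic BMDM library with DMSO, was near the floor of 3 counts.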
